A study of Mus musculus with 9 samples.

Results

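The insulin-like growth factor (IGF) system of serum-deprived mouse embryonic fibroblasts was examined through 10 genes. They were the ligands Igf1 and Igf2, the receptors Igf1r and Igf2r, and the binding protein genes Igfbp2, Igfbp3, Igfbp4, Igfbp5, Igfbp6 and Igfbp7, out of 19938 genes measured in the series. The members were taken by gene symbol. Each had exactly 1 probe set annotated to it alone, so all 10 were measured and no choice among probe sets arose.

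IGF-I and IGF-II are secreted growth factors that act on the IGF1R tyrosine kinase, which feeds the PI3K and AKT path and promotes growth and survival. IGF2R has no kinase and carries IGF-II to lysosomes for breakdown, and most secreted IGF is held by IGF binding proteins (IGFBPs), which lengthen its life and limit or deliver it to the receptor. Fibroblasts secrete both ligands and several IGFBPs, and cultured fibroblasts respond to IGF-I among the growth factors of serum.

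The cells were primary embryonic fibroblasts of 3 genotypes at Rb1, whose product, the retinoblastoma protein, restrains the E2F transcription factors. ∆G cells (Rb ∆G/∆G) carried on both alleles a change at the common E2F interaction site of the protein. Null cells (Rb -/-) had no functional allele, and WT cells (Rb +/+) were normal. Each genotype had 3 arrays, and every culture was plated sparsely on 15 cm dishes and moved after 24 h to medium with 0.1% serum, so that all groups share the low-serum state. The series text speaks of paired littermates, but the labels do not say which arrays share a litter or how many embryos each culture came from. The p-values below therefore rest on array-to-array spread alone, part of which may be technical. The values are log2 RMA signals, in which a difference of 1 is a 2-fold difference in signal. They were tested with limma over all 19938 genes, with p-values adjusted over all of them and a threshold of 0.05.

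The arrays bore fibroblast markers strongly. All 11 measured of 12 listed fibroblast markers, led by Fn1, Col1a1 and Postn, lay above the signal of the median gene. So did 4 of 16 macrophage, 2 of 8 endothelial, 1 of 7 skeletal muscle, 1 of 6 epithelial and 1 of 6 adipocyte markers. None of 6 liver markers did. Of 5 measured neural markers 2 did, Ncam1 (mean signal 10.99) and Map2 (9.47). Array medians were 6.33 to 6.40. Rb1 itself had 9.61 ± 0.13 in ∆G and 8.31 ± 0.23 in null cells, against 9.08 ± 0.13 in WT cells (SD, n = 3 each). The null difference from WT was −0.77 (limma, adjusted p = 0.0011) and the ∆G difference 0.53 (adjusted p = 0.075). How the null allele was made is not in the labels, so the Rb1 signal left in null cells checks nothing further. The 3 ∆G arrays and WT replicates 1 and 2 had Xist signals of 4.24 to 4.45, and the 3 null arrays and WT replicate 3 had 11.4 to 12.0. Xist is the RNA that silences an X chromosome in female cells. Sex pattern and genotype thus cannot be told apart between ∆G and null arrays, and values from WT arrays of the matching pattern are given beside the results they change.

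Of the ligands and receptors Igf1 was called in a comparison, and of the 6 binding protein genes all but Igfbp4 were. Igf1, Igfbp2, Igfbp3, Igfbp6 and Igfbp7 were lower in null than in WT cells, and Igfbp2 was also lower in ∆G than in WT cells. In null minus WT, 5 of 10 members fell and none rose, where 10.1% of all genes were called lower and 8.38% higher. In ∆G minus WT, 1 member fell and none rose, where 0.211% of all genes were called lower and 0.602% higher. In ∆G minus null, 4 members were higher and 1 was lower in ∆G, where 4.44% of all genes were called higher and 4.27% lower. The median log2 difference of the 10 members was −0.10 in ∆G minus WT and −0.38 in null minus WT, against −0.02 and −0.01 over all genes. These comparisons share arrays, so their values are given side by side and are not separate evidence. The members were chosen with earlier results of these data known, so their counts are description only.

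**Figure D1:**
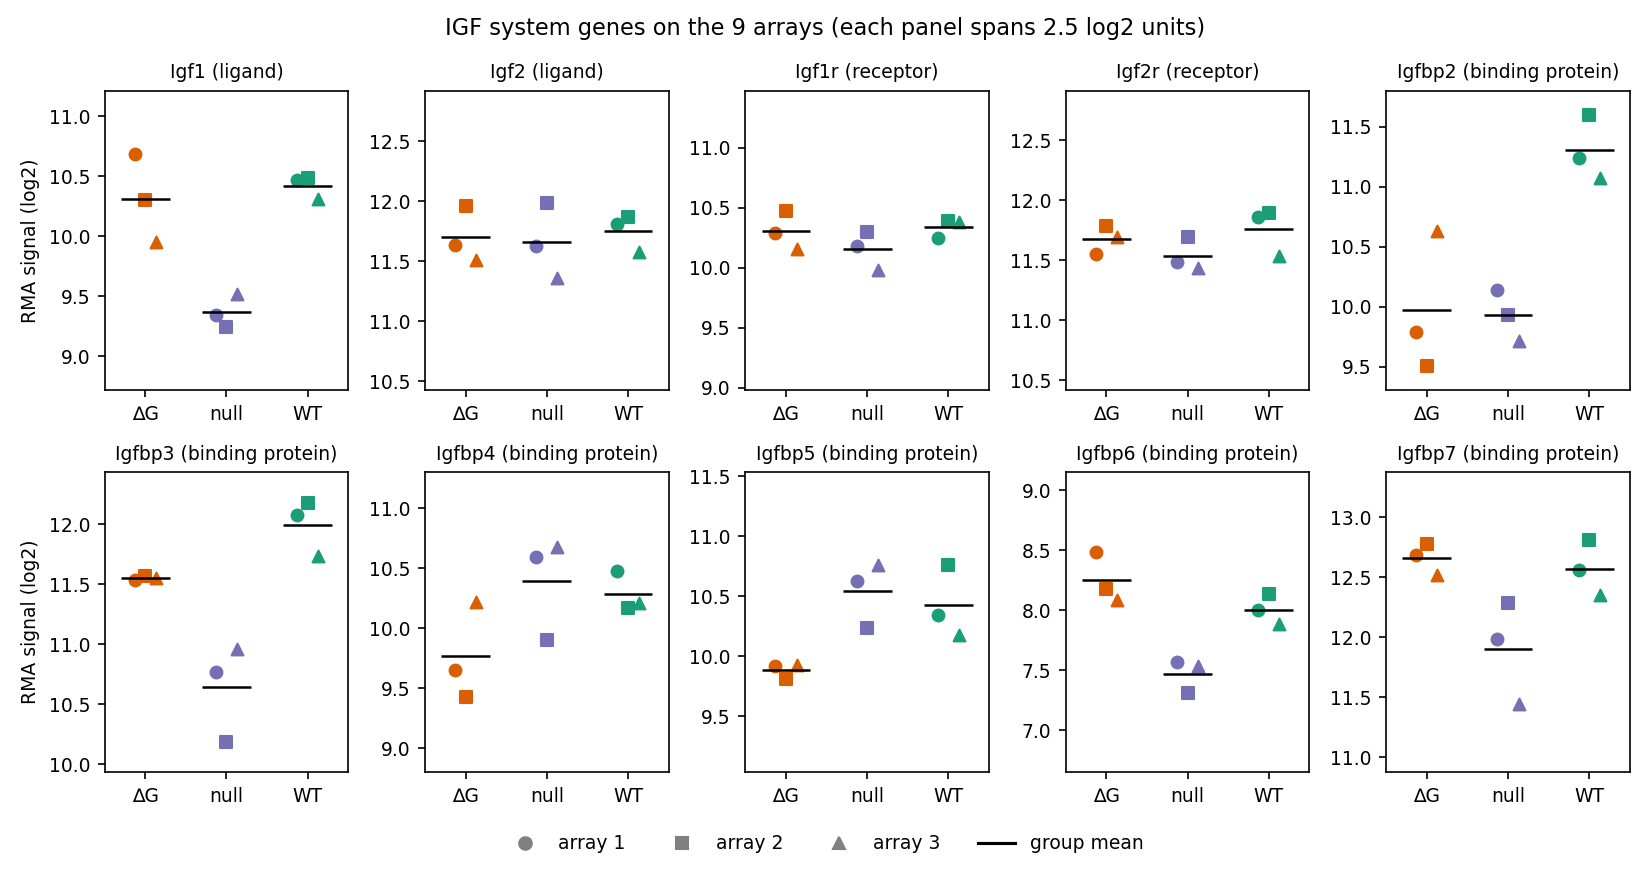
RMA signal (log2, vertical axis) of the 10 IGF system genes on the ∆G, null and WT arrays; points are single arrays, with a shape for the array number, and bars are group means. Igf2, Igf1r and Igf2r overlap between all groups, while the null arrays of Igf1 lie at 9.24 to 9.52, below every other array.

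Igf1, the ligand made by many mesenchymal cells, fell in null cells. Its signal was 10.69, 10.30 and 9.96 on ∆G replicates 1, 2 and 3 and 9.34, 9.24 and 9.52 on the null replicates, against 10.47, 10.49 and 10.31 on the WT replicates. The null arrays lay below all others, and the ∆G arrays reached both above and below the WT arrays. Null cells had 2.08-fold less Igf1 signal than WT cells (log2 difference −1.05, SE 0.15, adjusted p = 0.00074), and the call held in all 19 alternatives run. ∆G minus WT was −0.11 (95% interval −0.44 to 0.22, adjusted p = 0.86). ∆G exceeded null by 0.95 (SE 0.15, adjusted p = 0.0035). In bulk RNA of this kind, fewer cells of a type and less RNA per cell cannot be told apart.

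Macrophages also express Igf1, and macrophage markers varied between the arrays. The mean signal of 16 macrophage markers was 7.26, 6.70 and 5.89 on the ∆G replicates and 6.05, 5.66 and 5.96 on the null replicates, against 6.67, 6.23 and 5.50 on the WT replicates. None of the 16 was called in any comparison. WT replicate 3 had the lowest marker mean of all arrays and an Igf1 signal of 10.31. Within ∆G, the array order was the same for the marker mean and for Igf1. Within WT, replicate 3 was lowest in both, and replicates 1 and 2 had nearly equal Igf1 signals (10.47 and 10.49). Within null, replicate 2 was lowest in both, and replicates 1 and 3 changed places. The part of macrophage RNA in the Igf1 differences was not tested. Fibroblast markers moved with the genotype as well. Their mean was 11.43 to 11.58 on ∆G arrays and 10.99 to 11.14 on null arrays, against 11.49 to 11.83 on WT arrays. Of these markers 9 of 11 were called lower in null than in WT cells, where 10.1% of all genes were. The part of this shift in the lower signals of the null cells was not tested.

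**Figure D2:**
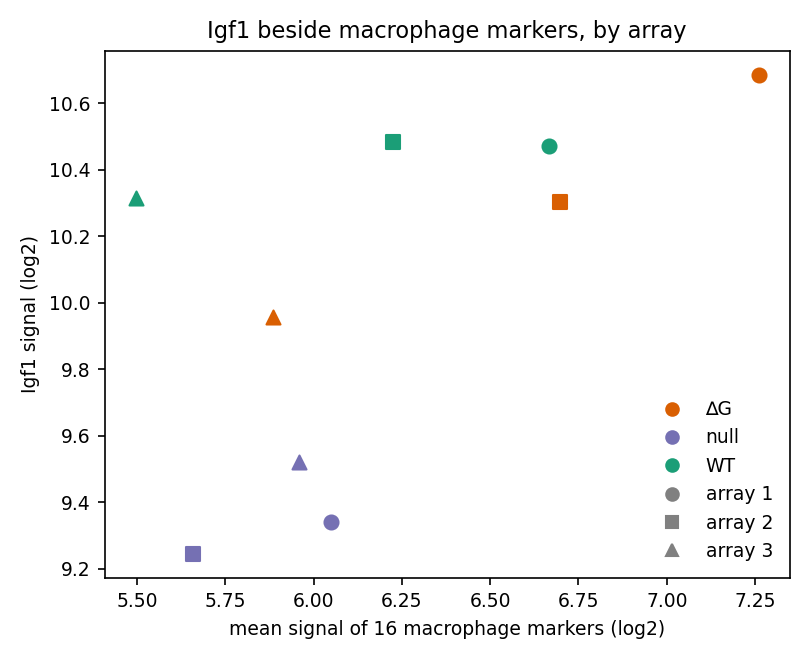
Igf1 signal (log2, vertical axis) against the mean signal of 16 macrophage markers (log2, horizontal axis), 1 point per array, with colours for genotype and shapes for array number. The null arrays lie at 9.24 to 9.52 for Igf1 with marker means of 5.66 to 6.05, and WT replicate 3 lies at 10.31 with a marker mean of 5.50.

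Igf2, the fetal ligand, is imprinted and expressed from the paternal copy in most mouse tissues. Its signal was 11.64, 11.96 and 11.51 on the ∆G replicates and 11.63, 11.99 and 11.36 on the null replicates, against 11.81, 11.87 and 11.58 on the WT replicates. The groups overlapped throughout. ∆G minus WT was −0.05 (95% interval −0.40 to 0.29) and null minus WT was −0.09 (95% interval −0.44 to 0.25), with adjusted p-values of 0.95 and 0.76. The intervals reach below −0.39 and above 0.25 on the log2 scale, so smaller differences in either direction were not resolved.

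The receptor genes were likewise not called. Igf1r, the signalling receptor, had 10.16 to 10.47 on ∆G arrays and 9.98 to 10.30 on null arrays, against 10.25 to 10.39 on WT arrays. Its differences from WT were −0.03 in ∆G (95% interval −0.26 to 0.19) and −0.19 in null cells (95% interval −0.41 to 0.03), with adjusted p-values of 0.95 and 0.25. Igf2r, the clearance receptor and a maternally expressed imprinted gene, had 11.55 to 11.78 on ∆G arrays and 11.43 to 11.69 on null arrays, against 11.54 to 11.90 on WT arrays. Igf2r differed from WT by −0.09 in ∆G (95% interval −0.33 to 0.15, adjusted p = 0.83) and by −0.23 in null cells (95% interval −0.47 to 0.01, adjusted p = 0.19). It was called lower in null cells only without WT replicate 3 (−0.34, adjusted p = 0.045) or with array quality weights (−0.29, adjusted p = 0.039). Against WT replicate 3, the WT array with the sex pattern of the null arrays, the difference was −0.00091 (adjusted p = 0.998).

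Igfbp2 was the member with the widest range over the arrays and the 1 member called lower in both mutants. It encodes a binding protein abundant in fetal tissues that prefers IGF-II. Its signal was 9.78, 9.50 and 10.63 on the ∆G replicates and 10.14, 9.93 and 9.71 on the null replicates, against 11.24, 11.60 and 11.07 on the WT replicates. All 6 mutant arrays lay below all 3 WT arrays, and ∆G replicate 3 lay highest among the mutants. Igfbp2 was 2.51-fold lower in ∆G than in WT cells (log2 difference −1.33, SE 0.24, adjusted p = 0.033). It was 2.60-fold lower in null than in WT cells (−1.38, SE 0.24, adjusted p = 0.0026). ∆G minus null was 0.05, with a 95% interval of −0.49 to 0.58 (adjusted p = 0.94). Without ∆G replicate 3 the ∆G difference was −1.66 (adjusted p = 0.00097). The ∆G call ended in 10 of 19 alternatives, among them the omission of WT replicate 1 or 2, ∆G replicate 1 or 2, or null replicate 1 or 3 (adjusted p = 0.074, 0.15, 0.12, 0.11, 0.059 and 0.0502), while the difference stayed between −1.66 and −1.09. Against WT replicates 1 and 2, which share the ∆G sex pattern, the ∆G difference was −1.45 (adjusted p = 0.049). The null call ended against WT replicate 3 alone (−1.14, adjusted p = 0.061).

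Igfbp3, the main IGF carrier of serum and a gene that fibroblasts secrete in response to TGF-beta, was lowest in null cells. Its signal was 11.53, 11.57 and 11.55 on the ∆G replicates and 10.77, 10.19 and 10.96 on the null replicates, against 12.07, 12.18 and 11.74 on the WT replicates. The 3 groups did not overlap, with ∆G between the others and its 3 arrays close together (SD 0.018). Igfbp3 was 2.56-fold lower in null than in WT cells (log2 difference −1.36, SE 0.17, adjusted p = 0.00032), a call kept in all 19 alternatives, with values of −1.52 to −1.07. ∆G exceeded null by 0.91 (SE 0.17, adjusted p = 0.0078). ∆G minus WT was −0.45 (SE 0.17, adjusted p = 0.32) and did not pass.

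Igfbp6 and Igfbp7 had lower signals in null cells, while their ∆G arrays overlapped the WT arrays. Igfbp6 encodes a binding protein with a strong preference for IGF-II. Its signal was 8.49, 8.18 and 8.08 on the ∆G replicates and 7.57, 7.31 and 7.54 on the null replicates, against 7.999, 8.13 and 7.89 on the WT replicates. Null arrays were below all others, and ∆G and WT arrays overlapped. Igfbp6 was 1.45-fold lower in null than in WT cells (log2 difference −0.53, SE 0.11, adjusted p = 0.0076) and 1.71-fold higher in ∆G than in null cells (0.78, SE 0.11, adjusted p = 0.0023). ∆G minus WT was 0.24 (adjusted p = 0.44).

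Igfbp7 encodes a secreted protein related to the IGFBPs that binds IGFs weakly. Its signal was 12.69, 12.77 and 12.52 on the ∆G replicates and 11.99, 12.29 and 11.44 on the null replicates, against 12.56, 12.81 and 12.35 on the WT replicates. The null arrays again lay below the rest, null replicate 3 by the most. Igfbp7 was 1.59-fold lower in null than in WT cells (log2 difference −0.67, SE 0.18, adjusted p = 0.027) and 1.69-fold higher in ∆G than in null cells (0.75, SE 0.18, adjusted p = 0.027). ∆G minus WT was 0.09 (adjusted p = 0.92). The null minus WT call ended without WT replicate 1 or 2 or null replicate 1 or 3 (adjusted p = 0.061, 0.11, 0.060 and 0.071), and without null replicate 3 the difference was −0.43. The ∆G minus null call ended without ∆G replicate 1 or 2 or null replicate 1 or 3 (adjusted p = 0.092, 0.10, 0.075 and 0.062). Against WT replicate 3 alone, null cells differed by −0.41 in Igfbp6 and by −0.44 in Igfbp7 (adjusted p = 0.14 and 0.32).

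Igfbp4 and Igfbp5 had another order of group means, with ∆G lowest, and of both genes only Igfbp5 in ∆G minus null was called. IGFBP4 mainly inhibits IGF action until the protease PAPP-A cleaves it, and IGFBP5 binds matrix and is cleaved by several proteases. Igfbp4 signal was 9.66, 9.42 and 10.22 on the ∆G replicates and 10.60, 9.90 and 10.68 on the null replicates, against 10.47, 10.17 and 10.21 on the WT replicates. ∆G replicates 1 and 2 lay below all other arrays, and ∆G replicate 3 fell among them. No comparison of Igfbp4 passed, at log2 differences of −0.52 for ∆G minus WT, 0.11 for null minus WT and −0.62 for ∆G minus null (adjusted p = 0.39, 0.81 and 0.11). ∆G minus null passed in 4 of 17 alternatives: with array quality weights (−0.81, adjusted p = 0.0084), without ∆G replicate 3 (−0.85, adjusted p = 0.018), without null replicate 2 (−0.87, adjusted p = 0.027) and with the replicate block (−0.62, adjusted p = 0.035).

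Igfbp5 signal was 9.92, 9.81 and 9.92 on the ∆G replicates and 10.62, 10.24 and 10.76 on the null replicates, against 10.35, 10.76 and 10.18 on the WT replicates. All ∆G arrays lay below all null and WT arrays, and null and WT arrays overlapped. Igfbp5 was 1.58-fold lower in ∆G than in null cells (log2 difference −0.66, SE 0.15, adjusted p = 0.023). Its differences from WT were −0.54 in ∆G (95% interval −0.88 to −0.21, adjusted p = 0.16) and 0.11 in null cells (95% interval −0.22 to 0.45, adjusted p = 0.70). The ∆G minus null call ended without ∆G replicate 1 or 2 or null replicate 1 or 3 (adjusted p = 0.068, 0.087, 0.093 and 0.085).

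**Figure D3:**
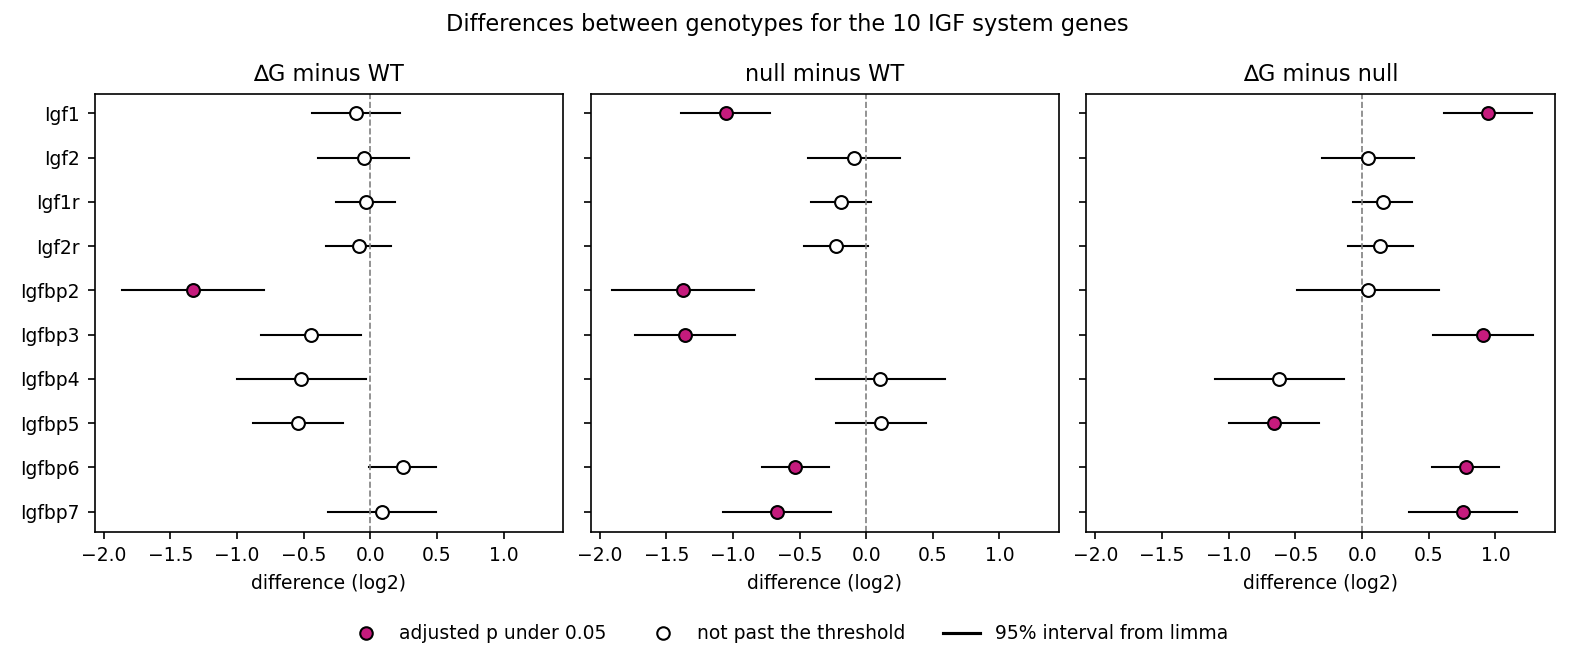
Differences between genotypes (log2, horizontal axis) for the 10 genes in ∆G minus WT, null minus WT and ∆G minus null; points are limma estimates, filled where the adjusted p was under 0.05, and lines are 95% intervals. In null minus WT the filled points are Igf1, Igfbp2, Igfbp3, Igfbp6 and Igfbp7, all left of 0, and in ∆G minus WT the filled point is Igfbp2.

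Some binding protein genes lie in pairs. In the RefSeq gene order for mouse, Igfbp2 and Igfbp5 are next to each other among protein-coding genes of chromosome 1, and Igfbp1 and Igfbp3 are next to each other on chromosome 11. Igfbp2 was called lower in null cells and its neighbour Igfbp5 had a difference of 0.11 there. In ∆G minus WT, Igfbp2 differed by −1.33 and Igfbp5 by −0.54 (limma, adjusted p = 0.033 and 0.16), so only Igfbp2 passed. For both genes all ∆G arrays lay below all WT arrays. The difference between both genes was not tested in either comparison. Igfbp1 had signals of 5.17 to 5.56 over the 9 arrays, under the 6.66 of the median gene, so a fall in it could hardly have been seen and it was not set against Igfbp3. Of the 10 nearest measured genes around Igfbp2, 5 on either side, none was called in either comparison with WT. Among the 10 around Igfbp3, Adcy1, an adenylyl cyclase gene, was called lower in null cells (−0.65). Over all genes 10.1% were called lower there, so 1 in 10 is near that share. Around Igf1 3 of 10 were called higher in null cells, around Igfbp7 1 of 10, and around Igfbp6 none, where 8.38% of all genes were called higher. Counts of 1 or none in 10 are near that share. The 3 around Igf1 were Tyms-ps, a pseudogene by its symbol, Parpbp, and the predicted gene Gm6653 (0.57, 0.65 and 0.39). Whether the region as such changed was not tested.

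Promoters were read because the genotypes differ in the restraint of E2F. Windows from 250 bases before to 50 bases after the annotated start were taken from RefSeq (GRCm38.p6), and all 10 members matched, with 2 windows for Igfbp2 and 4 for Igf2. The E2F-type octamers TTTCCCGC, TTTCGCGC, TTTGCCGC and TTTGGCGC, on both strands, were in none of the members' 14 windows and in 2.26% of all 32851 windows. GGGCGG, the GC box bound by Sp1 and related factors, was sought on both strands too. It was in windows 3 and 4 of Igf2, window 1 of Igfbp2 and the windows of Igf1r, Igf2r and Igfbp7. Of all windows 35.7% held it, and 38.2% of all genes had it in a window. TATAAA was in the Igfbp4 window, 28 bases before the start on the gene's strand. In the Igfbp6 window it was on the other strand, 148 bases before the start. It was in 13.6% of all windows and in windows of 15.7% of all genes. The windows below are of Igf1 and Igfbp3, called lower in null cells in every alternative run, and of the neighbours Igfbp2 (the first of its 2 starts) and Igfbp5, of which Igfbp2 was called against WT. Capitals mark GGGCGG.
Igf1 (chr10:87860861-87861160, + strand): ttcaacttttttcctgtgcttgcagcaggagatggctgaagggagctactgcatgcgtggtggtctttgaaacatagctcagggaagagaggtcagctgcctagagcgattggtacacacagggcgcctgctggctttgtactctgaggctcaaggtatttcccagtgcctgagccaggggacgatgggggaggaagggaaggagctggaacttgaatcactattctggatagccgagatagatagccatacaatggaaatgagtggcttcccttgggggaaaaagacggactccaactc
Igfbp2 (chr1:72824230-72824529, + strand): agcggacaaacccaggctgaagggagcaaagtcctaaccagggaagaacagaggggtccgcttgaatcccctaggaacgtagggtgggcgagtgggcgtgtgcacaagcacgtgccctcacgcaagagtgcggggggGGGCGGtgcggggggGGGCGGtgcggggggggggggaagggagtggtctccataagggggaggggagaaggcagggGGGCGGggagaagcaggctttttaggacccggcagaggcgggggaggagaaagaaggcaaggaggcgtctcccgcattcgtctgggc
Igfbp5 (chr1:72874816-72875115, - strand): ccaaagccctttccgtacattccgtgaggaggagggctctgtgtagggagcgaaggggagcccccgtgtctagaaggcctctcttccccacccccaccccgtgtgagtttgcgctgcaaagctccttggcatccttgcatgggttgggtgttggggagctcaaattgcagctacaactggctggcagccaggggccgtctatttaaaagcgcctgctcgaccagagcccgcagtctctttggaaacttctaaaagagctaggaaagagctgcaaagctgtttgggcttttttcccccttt
Igfbp3 (chr11:7213874-7214173, - strand): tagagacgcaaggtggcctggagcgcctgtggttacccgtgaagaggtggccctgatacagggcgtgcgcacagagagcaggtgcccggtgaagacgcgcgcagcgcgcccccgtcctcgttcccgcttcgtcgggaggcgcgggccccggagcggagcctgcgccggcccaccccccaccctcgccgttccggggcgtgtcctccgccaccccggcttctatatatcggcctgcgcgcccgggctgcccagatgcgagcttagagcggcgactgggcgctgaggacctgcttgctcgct

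The Igfbp2 window holds 3 GC boxes at 113, 98 and 37 bases before the start, and the Igf1, Igfbp5 and Igfbp3 windows hold none. The Igfbp3 window has 37 CpG dinucleotides, the Igfbp2 window 18, the Igfbp5 window 10 and the Igf1 window 6, where the median of all windows is 7. These matches describe the letters of the windows only.

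Genes with profiles most like the 2 most variable members were sought by the root mean square difference of centred log2 signals over the 9 arrays. Nearest to Igfbp2 were Nmbr, a neuromedin B receptor (0.19), Bmp3, a BMP family ligand (0.21), Slitrk3, a neuronal adhesion protein (0.23), and Clu, the secreted chaperone clusterin (0.26). Bmp3 had signals of 6.55, 6.16 and 7.84 on the ∆G replicates. Its null replicates had 6.98, 6.74 and 6.91, and its WT replicates had 8.27, 8.22 and 8.07. Genes were chosen here for likeness over these same arrays, so a shared higher ∆G replicate 3 follows from the choice. Nearest to Igfbp3 were Sfrp1, a secreted WNT antagonist (0.13), Ctsk, the collagen-cleaving protease cathepsin K (0.13), S1pr3, a sphingosine phosphate receptor (0.14), and Cacna1g, a calcium channel subunit (0.15). Among the other members Igf1 was nearest to Igfbp3 (0.28, rank 48 of the genes compared). Igfbp3 was the member nearest to Igfbp2, at 0.55 and only rank 236. On the ∆G and null arrays Nmbr (5.16 to 6.09) and Slitrk3 (5.35 to 6.32) lay under the 6.66 of the median gene.

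**Figure D4:**
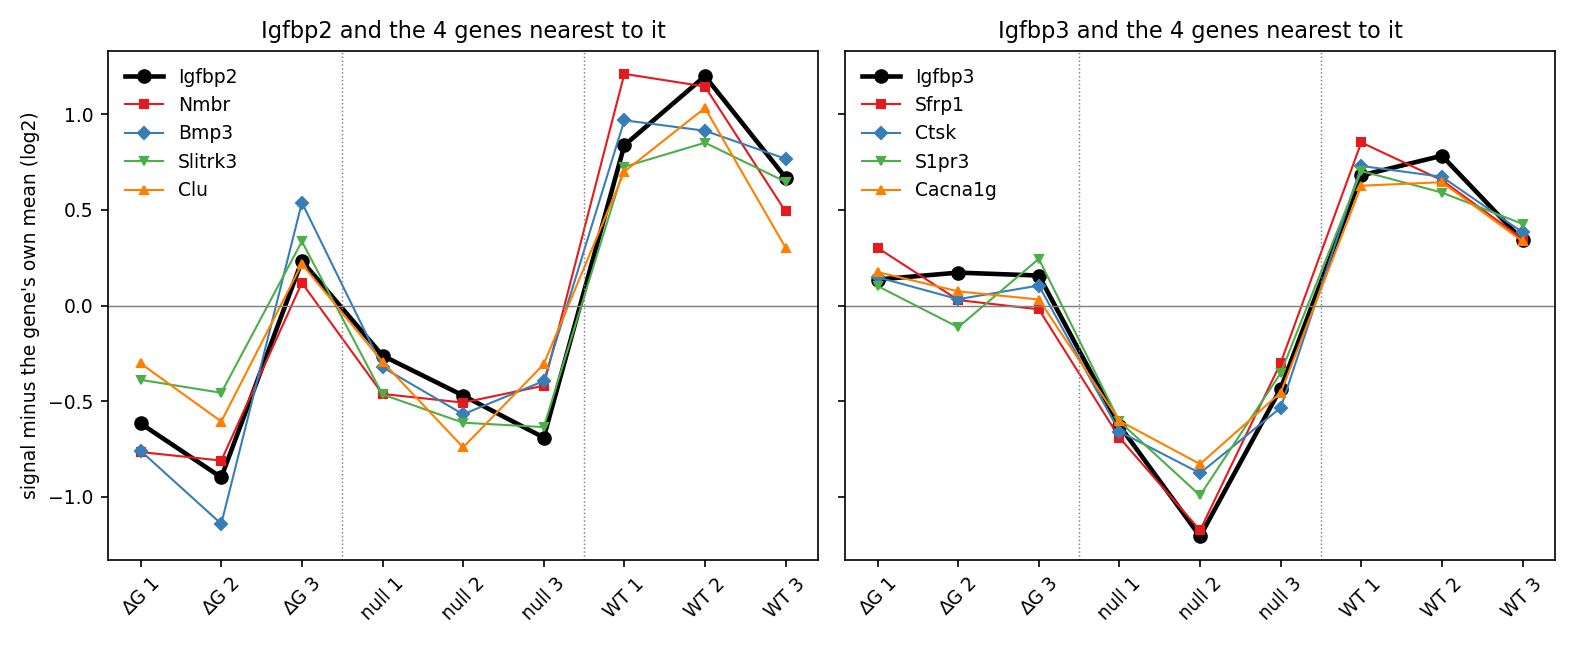
Signal of each gene minus its own mean over the 9 arrays (log2, vertical axis) by array (horizontal axis), for Igfbp2 on the left and Igfbp3 on the right, each with the 4 genes nearest to it by root mean square difference. The Igfbp2 group is low on ∆G replicates 1 and 2 and on all null arrays, with ∆G replicate 3 higher. The Igfbp3 group is lowest on null arrays, with ∆G arrays between those and WT. The 4 genes were chosen for likeness over these arrays, so each group shares its pattern through the choice.

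The wider IGF pathway was read through 5 lists of 63 genes, of which 57 were measured. In null minus WT 20 of the 57 were called lower and 5 higher, in ∆G minus WT 1 was called lower and none higher, and in ∆G minus null 12 were called higher and 2 lower. Over all genes the shares called were 10.1% lower and 8.38% higher in null minus WT, 0.211% lower and 0.602% higher in ∆G minus WT, and 4.44% higher and 4.27% lower in ∆G minus null. The 5 genes called higher in null cells are thus near the share of all genes. The lists were chosen with earlier results of these data known, so these counts describe the lists and test nothing about them. The null minus WT total of 25 was 16 without null replicate 1 and 12 against WT replicate 3 alone. The ∆G minus null total of 14 was 8 and 7 without ∆G replicates 1 and 2 and 6 and 9 without null replicates 1 and 2. Of the 25 genes called against WT, the 16 with the lowest p are named below.

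The proteases that cut IGF binding proteins, with their inhibitors, came next. Of 10 measured, 5 fell and 1 rose in null cells, with a median log2 difference of −0.34. Over all genes 10.1% fell and 8.38% rose there. Htra1, a serine protease that cleaves IGFBP5, had 9.65, 9.38 and 9.70 on the ∆G replicates and 8.79, 8.66 and 8.67 on the null replicates, against 10.29, 10.51 and 10.04 on the WT replicates. The 3 groups did not overlap. Htra1 was 1.63-fold lower in ∆G (log2 difference −0.70, SE 0.12, adjusted p = 0.022) and 2.98-fold lower in null cells (−1.57, SE 0.12, adjusted p = 1.5e-05), both against WT. The ∆G call ended without WT replicate 1 or 2 or ∆G replicate 1 or 2 (adjusted p = 0.066, 0.085, 0.061 and 0.092). Htra3, a related protease, was 1.71-fold lower in null cells and Adamts1, a secreted metalloprotease, 1.67-fold (adjusted p = 0.00089 and 0.00018). Pappa, which encodes the IGFBP4 protease PAPP-A, was 1.42-fold lower in null cells (adjusted p = 0.0078). In ∆G these 3 genes had log2 differences of −0.24, −0.26 and 0.04, and none was called.

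Other IGF system genes and the signalling path inside the cell made up a pair of lists. Of 8 measured IGF system genes beside the members, 3 fell: Ghr, the growth hormone receptor that drives hepatic Igf1 in the body, was 1.37-fold lower, Insr, the insulin receptor, 1.35-fold and Igf2bp3, which encodes a protein that binds Igf2 mRNA, 1.24-fold (adjusted p = 0.0026, 0.0086 and 0.0095). Of 21 genes of the adaptors and the PI3K, AKT and mTOR path, 4 fell and 1 rose, with a median of −0.11, where 10.1% of all genes fell and 8.38% rose, so these counts set the list little apart from all genes. Pik3r1, the main regulatory subunit of PI3K, was 1.61-fold lower and Grb10, an adaptor that dampens the receptors, fell by 0.32 on the log2 scale (adjusted p = 0.00064 and 0.0089), while Pik3cb, a catalytic subunit, was 1.86-fold higher (adjusted p = 0.0021). Grb10 was not called after repeated quantile normalisation (−0.17, adjusted p = 0.17). Neither list had a called gene in ∆G minus WT.

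FOXO factors, which AKT keeps out of the nucleus, and genes that insulin signalling represses were called in both directions in null cells. Of 12 measured, 3 rose and 3 fell in null cells and none was called in ∆G, with medians of −0.0044 and −0.08. Over all genes 8.38% rose and 10.1% fell in null cells, and 0.602% rose and 0.211% fell in ∆G. Ccng2, an atypical cyclin and FOXO target, was 1.44-fold lower and Txnip, a thioredoxin inhibitor, 1.36-fold lower in null cells (adjusted p = 0.00087 and 0.0070). The 3 genes that rose, named after their values were seen, were the factors Foxo1 (1.44-fold higher) and Foxo3 (1.22-fold) and the pseudokinase gene Trib1 (1.28-fold), with adjusted p = 0.015, 0.038 and 0.046. Of 6 imprinted partners, 5 fell in null cells, where 10.1% of all genes fell. None was called in ∆G, and the medians were −0.70 in null cells and −0.15 in ∆G. Dcn, a matrix proteoglycan, was 2.60-fold lower, Cdkn1c, a CDK inhibitor, 1.76-fold and Plagl1, a zinc finger factor, 1.48-fold (adjusted p = 6.6e-05, 0.0080 and 0.0029). Peg3, another zinc finger gene, fell by 0.59 on the log2 scale (adjusted p = 0.0078). Whether the listed genes, Dcn among them, are imprinted in these cells was not measured. Of the 16 named genes, 9 kept their null call in all 19 alternatives and 7 lost it in at least 1. Against WT replicate 3 alone Cdkn1c, Grb10, Igf2bp3, Pappa and Peg3 were not called (adjusted p = 0.13, 0.080, 0.077, 0.12 and 0.19).

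**Figure D5:**
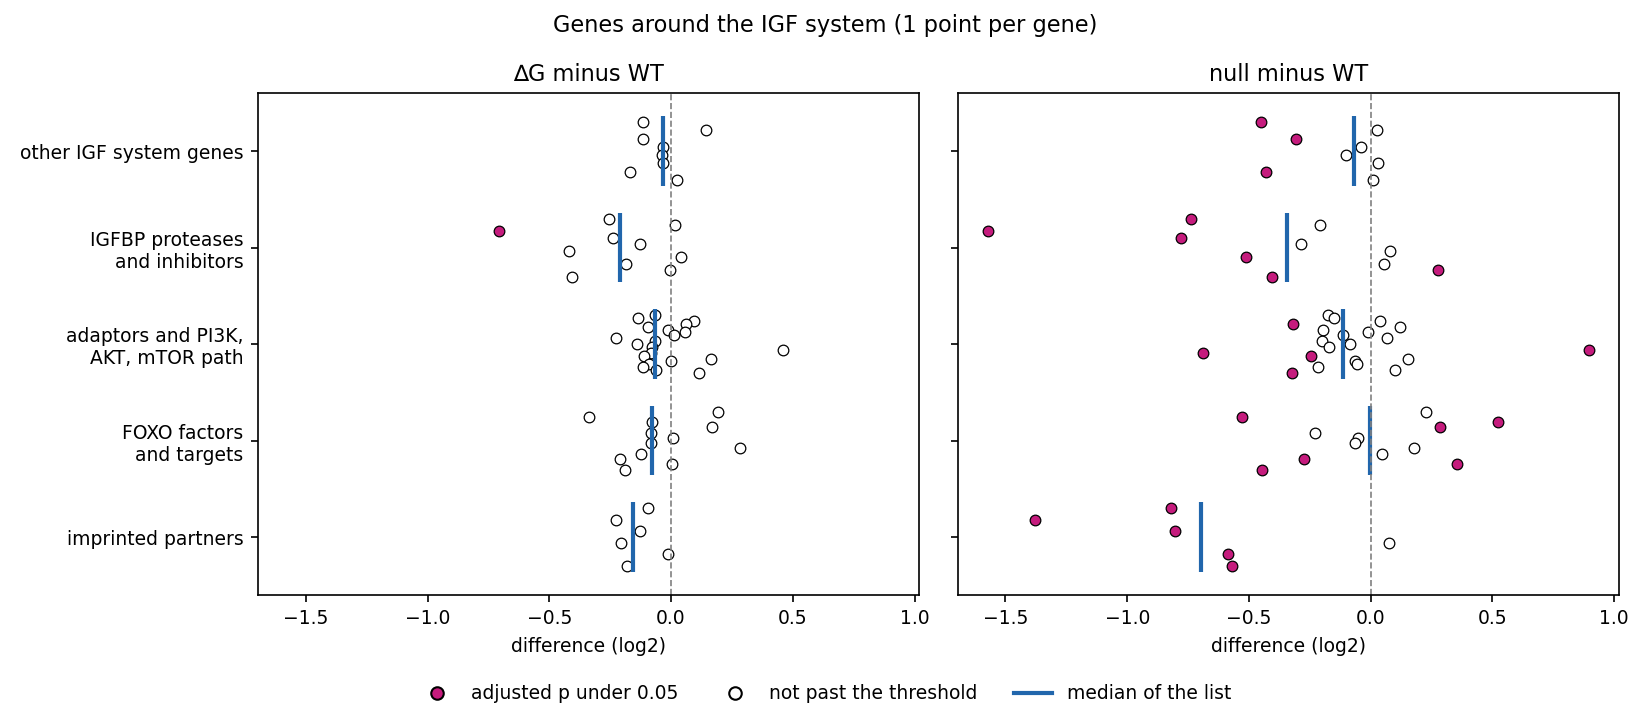
Log2 differences (horizontal axis) of 57 genes around the IGF system in 5 lists, for ∆G minus WT on the left and null minus WT on the right; each point is a gene, filled where the adjusted p was under 0.05, and the blue line is the list's median. In ∆G minus WT the filled point is Htra1, and in null minus WT 20 filled points lie left of 0 and 5 right of it.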

How the data were processed

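Total RNA of 9 fibroblast cultures was measured on Affymetrix GeneChip Mouse Gene 1.0 ST arrays, per the series text. The authors deposited log2 values made by RMA (background correction, quantile normalisation and probe set summary) with BRB-ArrayTools, per the series text. The submitters' processing notes list RMA and affy. Versions of that software were not given in the sources used here. RMA tends to compress differences, and with 3 arrays a genotype, array number limits precision. Of 35512 probe sets, 21789 carry 1 gene symbol in the platform annotation, and per gene the one with the highest mean was kept, leaving 19938 genes. Symbols and gene order came from the RefSeq table for GRCm38.p6, and promoter sequences from RefSeq for the same assembly.

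All 9 arrays, grouped by the genotype label, were fitted together in limma 3.58.1 under R 4.3.3, each genotype with its own mean, leaving 6 residual degrees of freedom, and p-values were Benjamini-Hochberg adjusted over all genes at 0.05. The members and lists were chosen with earlier results of these data known. Named genes are the members, the 16 list genes with the lowest p among those called against WT, and the 4 nearest profiles of the 2 most variable members, without predicted genes and clones. The motifs GGGCGG and TATAAA, and genes named as chromosomal neighbours, were added after values were seen. Array numbers recur in the titles, but the labels do not say that they mark litters, so the arrays were not treated as paired. Deviations from the group means correlated at −0.08 to 0.27 in same-numbered pairs, with 4 of 9 above 0.1. Pairs with different numbers ranged from −0.24 to 0.14. With the array number as a block, 211 genes were called in ∆G minus WT, 3777 in null minus WT and 1977 in ∆G minus null. Without it these were 162, 3678 and 1737. These values do not settle whether arrays of the same number belong together. The fit was tested on simulated data. A planned description of the proteins was not made, since no protein table was used here. Some listed genes are not analysed here.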

Additional observations from a re-analysis of the deposited data

How the results depend on the processing

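Alternatives were other normalisations, a filter on the dimmest 25% of genes, the mean of all probe sets, other variance models, array weights, fits of 2 groups, the array number as a block, omission of each array and 2 settings for the sex pattern. Each member had 1 probe set, so the mean of all probe sets left its values unchanged. In ∆G minus WT, the fit to WT arrays of the same sex pattern repeats the omission of WT replicate 3. Not all alternatives are thus distinct for the members. No called member changed sign. The count of called members in ∆G minus WT, 1 in the report, was 0 with trended robust variances, with only the 2 groups compared, with the replicate block and with the mean of 3 Y-linked genes as covariate, and 0 to 1 when single arrays were left out. In null minus WT the count of 5 was 2 with the Y-linked covariate and 2 against the WT array of the same sex pattern, namely Igf1 and Igfbp3, and 4 to 6 when single arrays were left out. In ∆G minus null it was 3 to 6 when single arrays were left out. With the Y-linked covariate Igfbp2, Igfbp6 and Igfbp7 differed between null and WT by −1.18, −0.38 and −0.39 (adjusted p = 0.079, 0.21 and 0.42). Related genes called in null minus WT numbered 10 with that covariate, 12 against the matching WT array and 16 to 25 without single arrays. In ∆G minus WT they numbered 2 with the replicate block and 0 to 2 without single arrays, and in ∆G minus null 22 with array weights and 6 to 17 without single arrays. The replicate block ended the call of Igfbp2 in ∆G minus WT (adjusted p = 0.054) and made Igfbp4 called in ∆G minus null (adjusted p = 0.035); it changed 2 of 30 member results. The causes were not tested, except that fits with fewer arrays have fewer degrees of freedom. The lone WT array left in the matching fit is assumed to vary like the other genotypes. Over all genes the calls in ∆G minus WT, 162 in the report's fit, numbered 292 with array weights and 62, 70, 83, 91 and 252 without WT 2, ∆G 2, ∆G 1, null 1 and ∆G 3, and those in null minus WT, 3678, numbered 1580 with the Y-linked covariate and 2010 against the matching WT array.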
